A study of Mus musculus with 9 samples.

Results

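The regulators and markers of primitive endoderm described here are 10 genes, Gata4, Gata6, Sox17, Sox7, Pdgfra, Dab2, Cubn, Amn, Lama1 and Lamb1, of the 48440 genes in the count tables. They were taken from a list of gene names, and each name was matched to the gene identifier of the count tables. All 10 were found, and all 10 passed the filter on low counts, as did 20838 genes in all. Polyadenylated RNA was sequenced from J1 mouse embryonic stem cells, an established line from the inner cell mass of the blastocyst. Suz12, which encodes part of the core of Polycomb repressive complex 2 (PRC2), carried an auxin-inducible degron (AID) in every library, so that the protein can be removed by adding auxin (indole-3-acetic acid). The 3 groups had 3 biological replicates each. Mock cells had the genotype Suz12-AID and are the control, Auxin cells had the same genotype and received 50 µM auxin for 96 h, and Reintroduction cells received the same auxin treatment followed by a washout of 4.5 h. All groups grew on gelatin in serum with leukemia inhibitory factor and the inhibitors PD0325901 (of the kinase MEK) and CHIR99021 (of the kinase GSK3). The tagged line is the only genotype, so the Mock values carry any effect of the tag itself. No untagged cells given auxin are among these libraries, so an effect of auxin itself cannot be told apart from that of Suz12 removal. How many clones the tagged line comprised is not given in the sources used here.

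Primitive endoderm is the epithelium that separates from the epiblast on the inner cell mass of the blastocyst, and it later forms the visceral and parietal endoderm of the yolk sac. Fibroblast growth factor (FGF) acting through MEK and ERK favours this fate over epiblast, and inhibitors of MEK, such as the one in this medium, hold embryonic stem cells in an epiblast-like state. GATA6 acts at the start of the lineage, GATA4 and the SOX factors SOX17 and SOX7 follow, and the cells then make endocytic receptors and the laminins of a basement membrane. In embryonic stem cells these regulators are largely silent, and PRC2 is known to bind the promoters of many silent lineage regulators, most of them rich in CpG dinucleotides.

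The start sites of the members differ widely in CpG content, and the stretches below are shown because they place Dab2, Pdgfra, Cubn and Lamb1 on that scale. Windows from 250 bases before to 50 bases after a start came from RefSeq (GRCm38.p6, the assembly also called mm10). Entries were matched for 5 members, Pdgfra, Dab2, Cubn, Amn and Lamb1. Each stretch runs 5′ to 3′ on the strand of the gene, stops short of the gene's annotated exons, and has its CpG dinucleotides in capitals.
Dab2, upstream start, chr15:6299539-6299787, plus strand: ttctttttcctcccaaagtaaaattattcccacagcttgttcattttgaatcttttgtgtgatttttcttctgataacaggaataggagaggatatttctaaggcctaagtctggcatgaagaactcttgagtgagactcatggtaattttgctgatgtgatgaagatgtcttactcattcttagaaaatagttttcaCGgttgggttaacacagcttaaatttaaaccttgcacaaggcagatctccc
Dab2, downstream start, chr15:6386498-6386597, plus strand: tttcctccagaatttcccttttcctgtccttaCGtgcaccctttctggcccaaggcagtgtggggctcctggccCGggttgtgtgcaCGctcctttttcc
Pdgfra, chr5:75152001-75152250, plus strand: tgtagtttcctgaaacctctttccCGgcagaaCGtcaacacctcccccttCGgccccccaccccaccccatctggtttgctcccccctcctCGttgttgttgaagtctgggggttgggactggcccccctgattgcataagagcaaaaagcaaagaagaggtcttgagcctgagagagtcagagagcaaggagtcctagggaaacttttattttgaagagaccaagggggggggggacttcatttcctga
Cubn, chr2:13491877-13492126, minus strand: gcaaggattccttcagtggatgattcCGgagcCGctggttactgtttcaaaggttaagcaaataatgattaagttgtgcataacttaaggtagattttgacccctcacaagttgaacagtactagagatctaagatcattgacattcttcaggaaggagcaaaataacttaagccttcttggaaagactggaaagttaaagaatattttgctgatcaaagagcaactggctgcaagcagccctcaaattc
Lamb1, chr12:31265043-31265233, plus strand: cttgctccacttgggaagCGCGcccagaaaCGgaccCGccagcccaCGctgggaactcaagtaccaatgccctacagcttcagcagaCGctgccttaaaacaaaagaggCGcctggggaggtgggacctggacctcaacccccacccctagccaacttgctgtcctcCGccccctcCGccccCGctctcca

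Over the whole 300 bases, the upstream start of Dab2 held 2 CpG dinucleotides and the downstream start held 19, so this gene had 1 CpG-poor and 1 CpG-rich start. Pdgfra and Cubn held 5 each, Amn held 15 and Lamb1 held 18. The median over 32851 RefSeq windows of the same length was 7. The ratio of observed to expected CpG was 0.19 at the upstream and 0.72 at the downstream start of Dab2, 0.26 for Pdgfra, 0.34 for Cubn, 0.52 for Amn and 0.62 for Lamb1, against a median of 0.38. A GATA motif, searched as AGATAA, as TGATAA, as AGATAG and as TGATAG, each on both strands, was found in the upstream window of Dab2 (2 matches) and in none of the other 5 windows. Of all windows, 29.8% held at least 1 match. A match describes letters and not binding, which was not measured here.

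All CPM values are read counts relative to library totals that were scaled by the trimmed mean of M-values (TMM). Depth ranged from 44341283 to 113931419 counts per library, and each mate of a read pair counts as 1. The cells had high levels of the stem cell factors in all 9 libraries, with Pou5f1 between 551 and 911 CPM. Depletion by the degron is of protein and was not measured by these transcripts. Suz12 read 125, 136 and 138 CPM in Mock, then 150, 122 and 152 CPM in Auxin, and 166, 173 and 164 CPM in Reintroduction. Library values also followed gene length to different extents. Per doubling of exon length, log2 CPM changed by between -0.02 and 0.06 in the Mock libraries, between 0.24 and 0.38 in Auxin and between 0.31 and 0.33 in Reintroduction. For genes in the longest of 10 equal classes, with a median of 10192 bases of exon, the median log2 change from Mock to Auxin was 0.59. Values with each library's trends of length and GC content removed are therefore given for Pdgfra, Dab2, Lama1, Lamb1 and Amn. Those of Cubn lie within the ranges over alternatives given for it. Each set of 3 values runs from replicate 1 to replicate 3.

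In Auxin against Mock, the contrast meant to follow the removal of Suz12, 7 of the 10 members rose, 1 fell and 2 did not pass the test. The threshold was an adjusted p under 0.05 (edgeR quasi-likelihood test, Benjamini-Hochberg over all 20838 genes). The members that rose were Gata4, Gata6, Sox17, Sox7, Pdgfra, Dab2 and Lama1, and Cubn fell. Calls were frequent throughout, at 73.2% of all genes, with 38.4% called higher and 34.8% called lower. A count of 8 called members is close to that share. The median log2 fold change was 1.01 over the members and 0.05 over all genes tested. That background is not matched for length. Classes 9 and 10 of exon length, which hold Dab2, Pdgfra, Cubn, Lama1 and Lamb1, had medians of 0.35 and 0.59. Of the members, 5 rose by at least 2-fold (Gata4, Gata6, Sox17, Sox7 and Dab2), against 19.8% of all genes. With the trends of length and GC content removed, Dab2 rose by 0.96, below 2-fold, and Pdgfra by 0.19 without a call. With total counts in place of TMM factors the split of calls over all genes was 9748 higher and 5662 lower, in place of 7996 and 7261, and the median of all genes was 0.26. On that scale 8 members rose and 1 fell. In bulk RNA, fewer cells with a transcript and less of it per cell cannot be told apart, and this holds for every difference below.

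**Figure D1:**
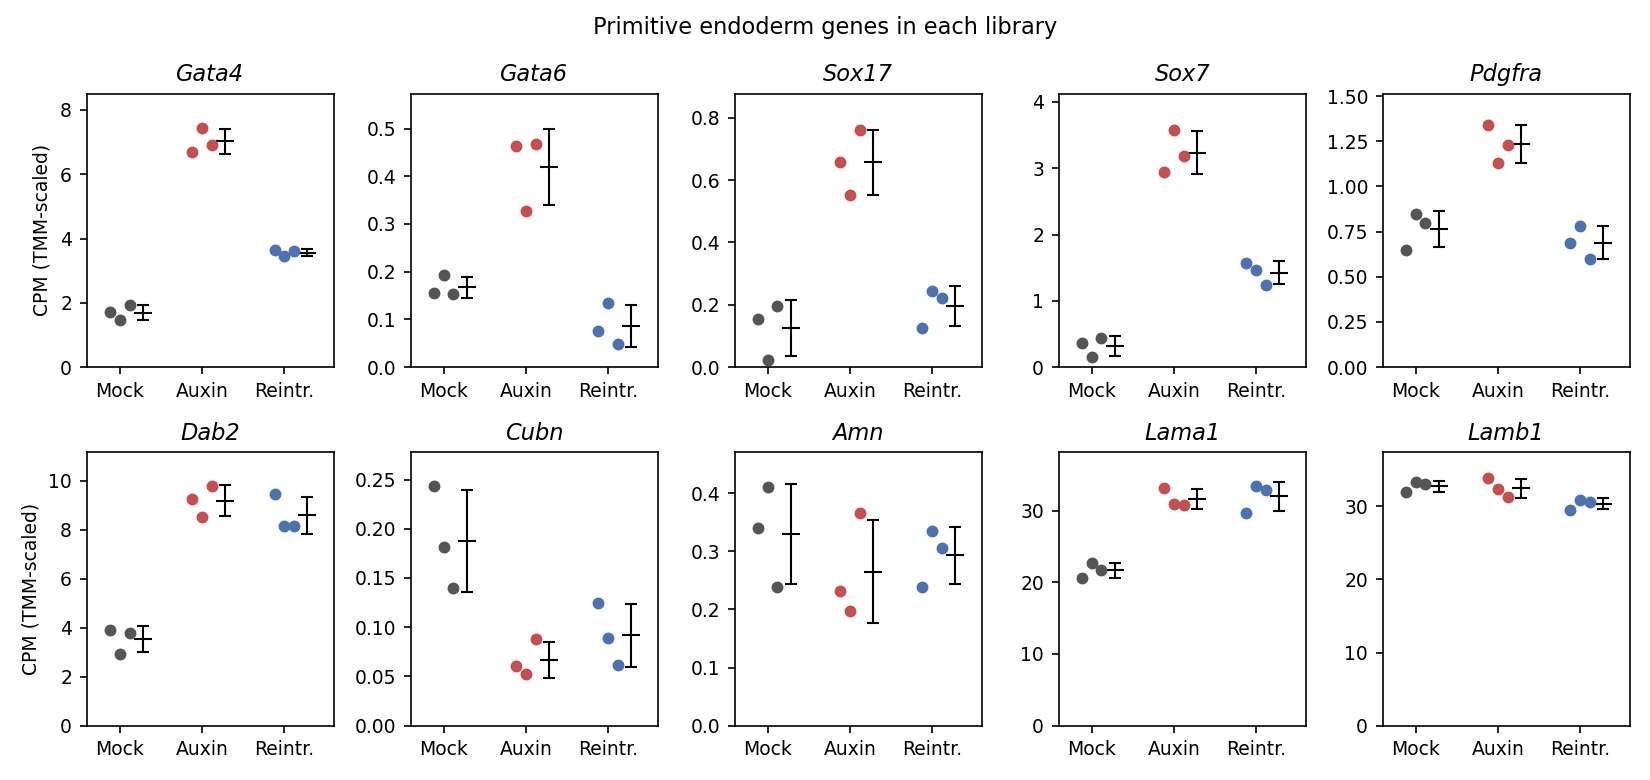
Level of each gene in TMM-scaled CPM (vertical axes start at 0 and differ between panels) in the 3 libraries of each group, with the mean and SD (n = 3) beside the points; Reintr. is Reintroduction. Gata4 and Sox7 lie highest in Auxin and between the groups in Reintroduction, Dab2 and Lama1 stay at the Auxin level, and Gata6 reaches its lowest values in Reintroduction.

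Of the 4 transcription factors, all rose in Auxin, and all fell again in Reintroduction. Gata4 encodes a zinc finger factor that can drive stem cells into extraembryonic endoderm when it is forced on (ENSMUSG00000021944.15, mm10 chromosome 14, 63198922 to 63271692, minus strand). It measured 1.71, 1.47 and 1.92 CPM in Mock, against 6.70, 7.44 and 6.92 in Auxin, and 3.65, 3.45 and 3.6 in Reintroduction. The 3 groups did not overlap, and each Reintroduction library lay between the other groups. The log2 fold change was 2.05 in Auxin against Mock (SE 0.107, adjusted p = 1.74e-08), which is 4.14-fold. It was -0.97 in Reintroduction against Auxin (SE 0.102, adjusted p = 1.5e-05) and 1.08 in Reintroduction against Mock (SE 0.11, adjusted p = 6.72e-06). On the log2 scale, 52.5% of the rise was left in Reintroduction.

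Gata6 encodes the GATA factor that comes first in the lineage (ENSMUSG00000005836, mm10 chromosome 18, 11052510 to 11085635, plus strand). It was near the limit of detection, with 16, 16 and 11 raw counts in Mock, then 38, 25 and 32 in Auxin, and 6, 6 and 4 in Reintroduction. These correspond to 0.155, 0.193 and 0.154 CPM, to 0.463, 0.328 and 0.467 CPM, and to 0.0753, 0.134 and 0.049 CPM. Every Auxin library lay above every Mock library, and every Reintroduction library lay below every Mock library. Gata6 rose by 1.32 log2 units in Auxin against Mock (SE 0.323, adjusted p = 0.00325) and fell by 2.38 in Reintroduction against Auxin (SE 0.379, adjusted p = 0.000338). Reintroduction against Mock gave -1.06 (SE 0.417, adjusted p = 0.0409). That last call is fragile, since it was lost in 16 of 19 alternatives, over which the log2 fold change ranged from -1.41 to -0.65 and the adjusted p from 0.0176 to 0.299. Gata6 shares 58 bases of exon with a gene on the opposite strand, and the counting did not use strand.

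Sox17 encodes an HMG-box factor of primitive and definitive endoderm (ENSMUSG00000025902.13, mm10 chromosome 1, 4490931 to 4497354, minus strand). It had 16, 2 and 14 raw counts in Mock, against 54, 42 and 52 in Auxin, and 10, 11 and 18 in Reintroduction. The values were 0.155, 0.0241 and 0.196 CPM in Mock, then 0.659, 0.551 and 0.76 CPM in Auxin, and 0.125, 0.245 and 0.221 CPM in Reintroduction. Auxin lay above both other groups, which overlapped each other. Sox17 rose by 2.38 log2 units in Auxin against Mock (SE 0.462, adjusted p = 0.000666) and fell by 1.76 in Reintroduction against Auxin (SE 0.451, adjusted p = 0.00712). In Reintroduction against Mock the log2 fold change of 0.62 did not pass the test (SE 0.535, 95% interval -0.56 to 1.8, adjusted p = 0.323). Mock replicate 2 held only 2 counts, and the rise ranged from 1.91 to 2.77 over the alternatives. Sox17 shares 804 bases of exon with a gene on the opposite strand.

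Sox7 encodes a close relative of SOX17 that marks primitive and parietal endoderm (ENSMUSG00000063060.5, mm10 chromosome 14, 63943674 to 63950732, plus strand), and it had the largest log2 fold change of the 10 genes in Auxin against Mock. Its level was 0.369, 0.157 and 0.434 CPM in Mock, against 2.94, 3.58 and 3.18 in Auxin, and 1.57, 1.47 and 1.24 in Reintroduction. As for Gata4, the groups did not overlap and Reintroduction lay between the others. The log2 fold change was 3.34 in Auxin against Mock (SE 0.251, adjusted p = 3.12e-07), or 10.1-fold. It was -1.18 in Reintroduction against Auxin (SE 0.214, adjusted p = 0.000815) and 2.15 in Reintroduction against Mock (SE 0.265, adjusted p = 2.81e-05), so that 64.5% of the rise was left. Sox7 lies 672 kb from Gata4 on chromosome 14.

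Pdgfra, the receptor for platelet-derived growth factor and a surface marker of primitive endoderm, was the only receptor tyrosine kinase among the members (ENSMUSG00000029231.15, mm10 chromosome 5, 75152292 to 75198215, plus strand). Its level was 0.65, 0.845 and 0.797 CPM in Mock, then 1.34, 1.13 and 1.23 in Auxin, and 0.69, 0.78 and 0.6 in Reintroduction. Auxin stood above both other groups, and these overlapped. Pdgfra rose by 0.70 log2 units in Auxin against Mock (SE 0.172, adjusted p = 0.0034) and fell by 0.85 in Reintroduction against Auxin (SE 0.179, adjusted p = 0.00213). Reintroduction against Mock gave -0.16 (95% interval -0.56 to 0.25, adjusted p = 0.464). Pdgfra has 10024 bases of exon, and genes of that length had a median of 0.59 in Auxin against Mock. With the trends of length and GC content removed, the change in Auxin against Mock became 0.19 and lost its call (adjusted p = 0.308), while Reintroduction against Mock gave -0.60 and gained one (adjusted p = 0.0105). The fall in Reintroduction against Auxin kept its call in all 20 alternatives run. Pdgfra shares 456 and 166 bases of exon with a pair of genes on the opposite strand and 30 bases with the microRNA gene Mir7025.

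The endocytic genes moved apart from one another. DAB2 is a clathrin adaptor that takes up receptors at the apical surface of visceral endoderm, CUBN (cubilin) is a receptor for vitamin B12 complexes and lipoproteins, and AMN (amnionless) anchors cubilin in the membrane. Dab2 (ENSMUSG00000022150.16, mm10 chromosome 15, 6299788 to 6440712, plus strand) measured 3.92, 2.91 and 3.78 CPM in Mock, against 9.26, 8.51 and 9.76 in Auxin, and 9.46, 8.13 and 8.15 in Reintroduction. Every Auxin and Reintroduction library lay above every Mock library, and the Auxin and Reintroduction groups overlapped. The log2 fold change was 1.37 in Auxin against Mock (SE 0.118, adjusted p = 9.27e-07) and 1.28 in Reintroduction against Mock (SE 0.118, adjusted p = 3.17e-06). Without the trends of length and GC content these were 0.96 and 0.89, both still called. Reintroduction against Auxin gave -0.09 (95% interval -0.34 to 0.15, adjusted p = 0.521), and 93.1% of the rise was left at 4.5 h. The counts are per gene, so the CpG-poor and the CpG-rich start of Dab2 shown above were not told apart.

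Cubn was the one member that fell in Auxin against Mock (ENSMUSG00000026726.10, mm10 chromosome 2, 13276338 to 13491813, minus strand). It had 25, 15 and 10 raw counts in Mock, then 5, 4 and 6 in Auxin, and 10, 4 and 5 in Reintroduction. In CPM these are 0.243, 0.181 and 0.14, then 0.061, 0.0525 and 0.0876, then 0.125, 0.0891 and 0.0613. Mock lay above both other groups. The log2 fold change was -1.50 in Auxin against Mock (SE 0.427, adjusted p = 0.00791) and ranged from -2.30 to -1.26 over the alternatives, all called. Cubn has 14935 bases of exon and is in the longest class, whose median of 0.59 in Auxin against Mock was opposite in sign. Against Mock, Reintroduction gave -1.04 (SE 0.413, adjusted p = 0.0433), a call lost in 13 of 19 alternatives. Over the 19 the log2 fold change ranged from -1.71 to -0.79 and the adjusted p from 0.0039 to 0.162. Reintroduction against Auxin gave 0.46 (95% interval -0.62 to 1.55). Cubn shares 368 bases of exon with a gene on the opposite strand.

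Amn showed no called difference in any comparison (ENSMUSG00000021278.6, mm10 chromosome 12, 111271111 to 111276426, plus strand). It measured 0.34, 0.41 and 0.238 CPM in Mock, against 0.232, 0.197 and 0.365 in Auxin, and 0.238, 0.334 and 0.306 in Reintroduction. All 3 groups overlapped. Auxin against Mock gave a log2 fold change of -0.34 with a 95% interval of -1.05 to 0.38 (adjusted p = 0.367), so changes within that interval remain compatible with these libraries. The other receptor that works with DAB2 and cubilin in visceral endoderm, Lrp2 (megalin), is no member but is the natural partner for comparison. Lrp2 measured 9.23, 10.5 and 10.7 CPM in Mock, then 26.2, 21.9 and 25.1 in Auxin, and 18.3, 21.5 and 23.2 in Reintroduction, a rise of 1.27 log2 units in Auxin against Mock (SE 0.101, adjusted p = 5.16e-07). With the trends of length and GC content removed, that rise was 0.61 (adjusted p = 7.29e-06). The ratio of Lrp2 to Cubn per kb of exon was 34.0, 51.8 and 68.4 in Mock, against 385, 374 and 256 in Auxin, and 131, 216 and 338 in Reintroduction. Transcripts for the partner receptor therefore outnumbered those of Cubn in each library, and by more in each Auxin and Reintroduction library than in any Mock library.

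Laminins are trimers of an alpha, a beta and a gamma chain, and Lama1, Lamb1 and Lamc1 encode the chains of the laminin that primitive endoderm lays down under itself. Lama1 (ENSMUSG00000032796.7, mm10 chromosome 17, 67697265 to 67822645, plus strand) measured 20.6, 22.7 and 21.7 CPM in Mock, then 33.2, 30.9 and 30.8 in Auxin, and 29.6, 33.4 and 32.9 in Reintroduction. Auxin and Reintroduction overlapped, and both lay above Mock. Lama1 rose by 0.55 log2 units in Auxin against Mock (SE 0.066, adjusted p = 1.61e-05) and was 0.56 above Mock in Reintroduction (SE 0.066, adjusted p = 2e-05). Reintroduction against Auxin gave 0.01 (95% interval -0.13 to 0.16). These rises are of the size seen for other genes of this length, whose median in Auxin against Mock was 0.59. With the trends of length and GC content removed they were 0.13 (adjusted p = 0.046) and 0.25 (adjusted p = 0.00152). With a replicate block as well, the first was 0.13 and lost its call (adjusted p = 0.0551).

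Lamb1 (ENSMUSG00000002900.15, mm10 chromosome 12, 31265234 to 31329644, plus strand) was the most abundant member in Mock by length. It measured 31.9, 33.3 and 33.0 CPM in Mock, against 33.8, 32.3 and 31.2 in Auxin, and 29.5, 30.9 and 30.6 in Reintroduction. Mock and Auxin overlapped, while each Reintroduction library lay below all libraries of the other groups. The log2 fold change was -0.01 in Auxin against Mock (95% interval -0.13 to 0.1, adjusted p = 0.845), -0.10 in Reintroduction against Auxin (adjusted p = 0.151) and -0.11 in Reintroduction against Mock (adjusted p = 0.0881), none of them called. The direction of Lamb1 in Auxin against Mock depended on the scaling. It was 0.20 and called with total counts (adjusted p = 0.00569), and -0.46 and called with the trends removed (adjusted p = 1.39e-06). Against Mock, Reintroduction gave -0.45 and a call with the trends removed (adjusted p = 2.76e-06). Against Auxin, Reintroduction gave -0.18 and a call with total counts (adjusted p = 0.0171), -0.15 and a call with the 1 CPM filter (adjusted p = 0.0223), and 0.01 with the trends removed. Lamc1, the gamma chain, gave -0.02 in Auxin against Mock (adjusted p = 0.792) and fell by 0.32 in Reintroduction against Auxin (SE 0.062, adjusted p = 0.00135). The ratio of Lama1 to Lamb1 per kb of exon does not depend on the scaling of a library, and it was 0.672, 0.712 and 0.686 in Mock, then 1.02, 0.996 and 1.03 in Auxin, and 1.05, 1.12 and 1.12 in Reintroduction. The alpha chain transcript was thus below the beta chain transcript in each Mock library and about level with it or above it in all others, for 2 genes of nearly the same exon length (9518 and 9917 bases).

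**Figure D2:**
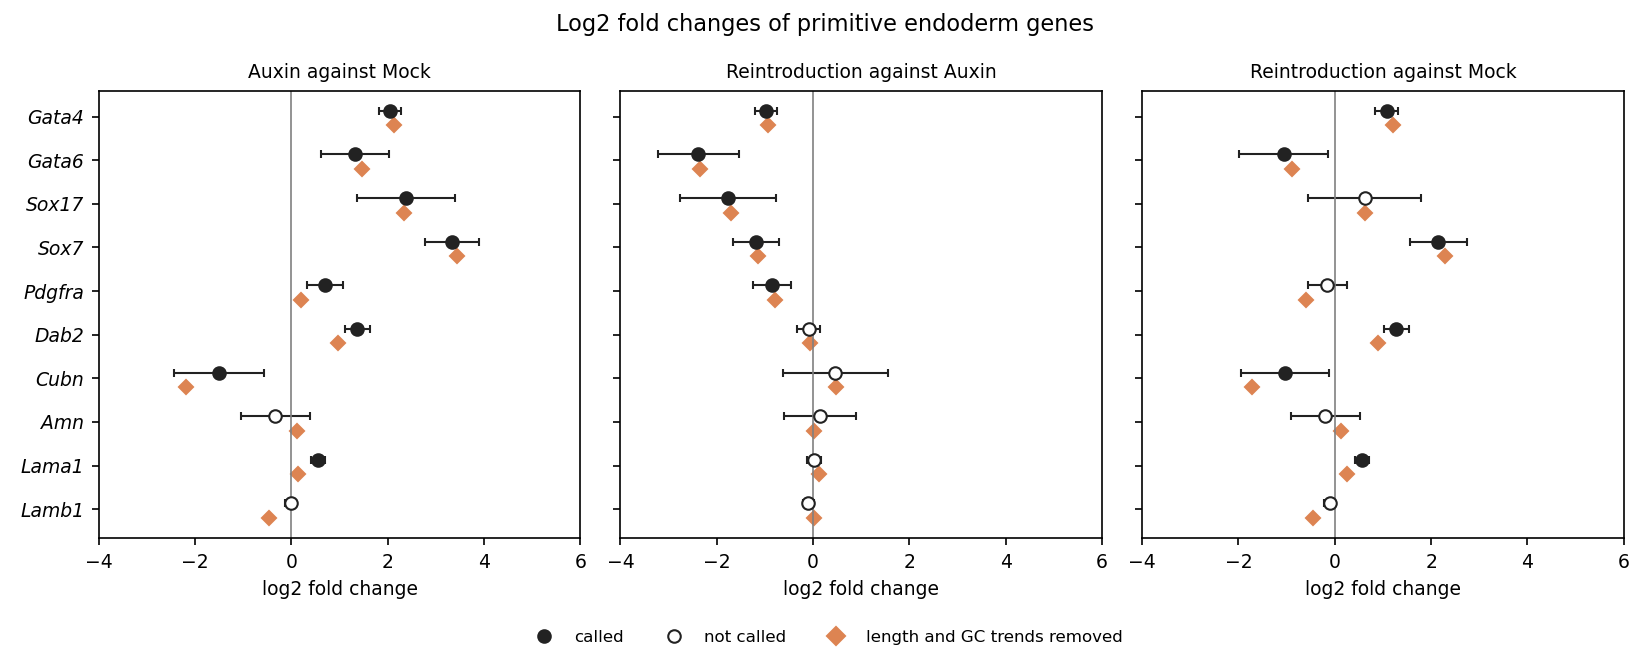
Log2 fold change of each gene in the 3 comparisons (circles, filled where called at an adjusted p under 0.05, with 95% intervals as bars) and the value with each library's trends of length and GC content removed (orange diamonds). The transcription factors keep their place when the trends are removed, while Pdgfra moves from 0.7 to 0.19, Lama1 from 0.55 to 0.13 and Lamb1 from -0.01 to -0.46 in Auxin against Mock.

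Between Auxin and Reintroduction, a contrast that follows the early hours of the washout, none of the members rose, 5 fell (Gata4, Gata6, Sox17, Sox7 and Pdgfra) and 5 did not pass the test. Over all genes 50.9% were called, 25.5% higher and 25.5% lower, so 5 of 10 members called is the background share in number. The median log2 fold change was -0.47 over the members and 0 over all genes tested. The 5 that fell are the transcription factors and the growth factor receptor, and the 5 not called are the endocytic genes and the laminins. Cubn and Amn lay below 1 CPM, and their 95% intervals (-0.62 to 1.55 and -0.61 to 0.89) include falls. A fold change of at least 2 was reached by 3 of the 5 that fell (Gata6, Sox17 and Sox7), against 6.82% of all genes that fell that far. Without overlap between groups, 6 members lay lower in Reintroduction, the sixth being Lamb1, against 29.4% of all genes.

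In Reintroduction against Mock, which asks what is still different after the washout, 4 members were higher (Gata4, Sox7, Dab2 and Lama1), 2 lower (Gata6 and Cubn) and 4 not called. Over all genes 68.1% were called, 34.7% higher and 33.4% lower. The median was 0.23 over the members and 0.03 over all genes, but 0.27 and 0.52 over classes 9 and 10 of exon length. Reintroduction shares its reference libraries with the comparisons above, so the values of a gene in the 3 comparisons are not independent of each other. Set side by side on the log2 scale, 93.1% of the Auxin change was left for Dab2 and 102% for Lama1, 64.5% for Sox7, 52.5% for Gata4 and 25.9% for Sox17. For Cubn 69.1% of the fall was left. The Reintroduction against Mock difference behind the Sox17 value was not called (95% interval -0.56 to 1.8). That of Cubn lost its call in 13 of 19 alternatives. The Lama1 value compares rises of the size seen for genes of its length. With the trends removed these rises were 0.13 in Auxin and 0.25 in Reintroduction against Mock. For Gata6 the value was -80.7% and for Pdgfra -22.6%, since Reintroduction lay below Mock in the mean. This difference was not called for Pdgfra, and its call for Gata6 was lost in 16 of 19 alternatives.

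Proportions were also compared within pairs of related factors. The ratio of Gata4 to Gata6 per kb of exon was 9.0, 6.24 and 10.2 in Mock, against 11.8, 18.6 and 12.1 in Auxin, and 39.7, 21.1 and 60.1 in Reintroduction. The groups did not overlap, although the Reintroduction values rest on 4 to 6 counts of Gata6 per library, and Gata4 was the more abundant GATA factor in all 9 libraries. The ratio of Sox7 to Sox17 was 3.44, 9.41 and 3.20 in Mock, then 6.46, 9.41 and 6.07 in Auxin, and 18.1, 8.68 and 8.12 in Reintroduction, with overlap between all groups. The high Mock value belongs to the library with 2 Sox17 counts. With 3 libraries against 3, an exact two-sided permutation test cannot give a p below 0.1, so these ratios are given without a test.

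**Figure D3:**
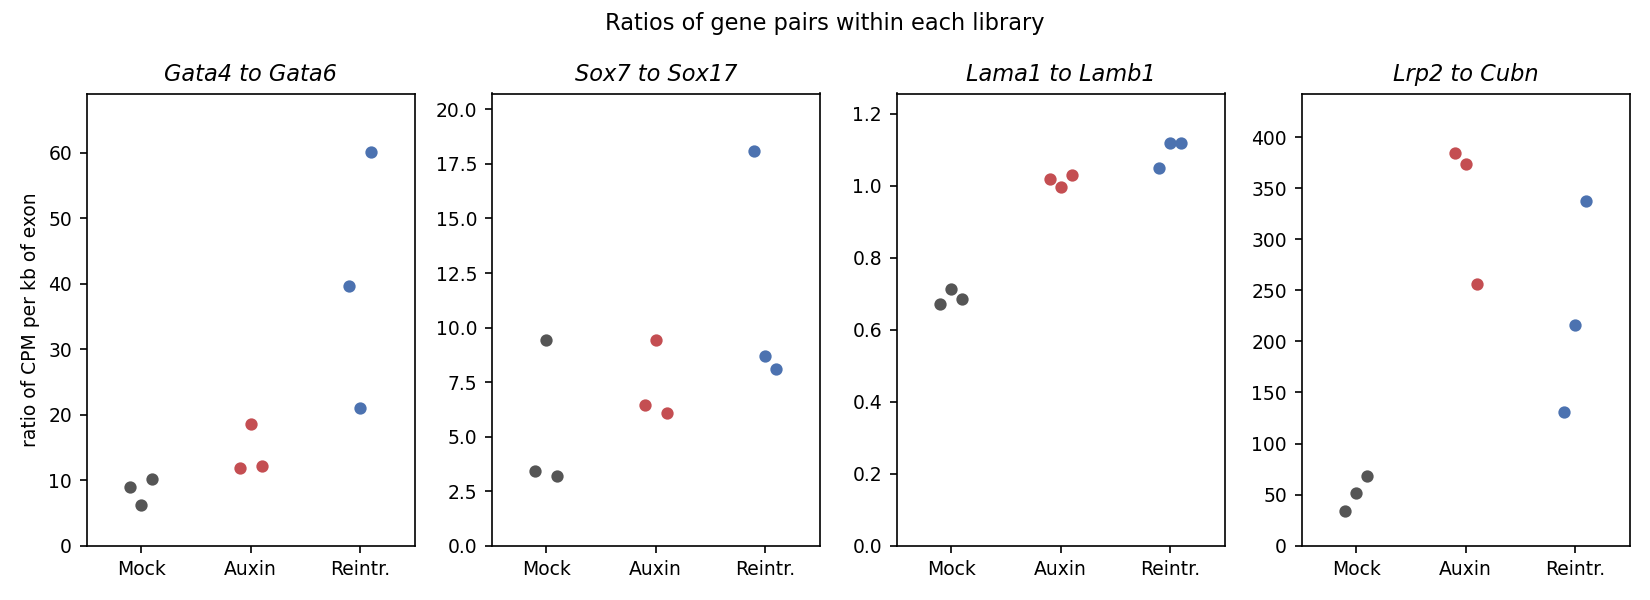
Ratio of 2 genes in CPM per kb of exon within each library (vertical axes start at 0), by group; Reintr. is Reintroduction. The Gata4 to Gata6 ratio runs from 6.24 to 10.2 in Mock and from 21.1 to 60.1 in Reintroduction, and the Lama1 to Lamb1 ratio from 0.672 to 0.712 in Mock and from 0.996 to 1.12 in the other groups.

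Levels per exon length set the members far apart. In Mock, mean CPM per kb was 3.30 for Lamb1 and 2.28 for Lama1, 0.435 for Gata4, 0.0524 for Gata6 and 0.0126 for Cubn. Lamb1 lay above 51.7% of the genes tested, Gata4 above 27.4% and Cubn above 1.8%. Neighbours in that order whose libraries overlapped in Mock were Dab2 with Gata4, Sox7 with Pdgfra, and Sox17 with Cubn. In Auxin the order was Lama1 and Lamb1 (3.32 and 3.27, overlapping), Gata4 (1.80), Dab2 (1.25) and Sox7 (0.981), then Amn, Sox17, Gata6 and Pdgfra between 0.157 and 0.123 with overlap between neighbours, and last Cubn at 0.00449. In Reintroduction Dab2 (1.17) stood above Gata4 (0.914), with no overlap between their libraries, whereas Gata4 stood above Dab2 in Auxin. Even in Auxin, Gata4 remained below Tbp, a transcription factor present in every cell, at 3.68 CPM per kb, and Lama1 and Lamb1 remained far below Lamc1 at 53.8. Such reference genes were not constant on this scale. In Auxin against Mock, Tbp gave -0.3 (SE 0.047) and Actb -1.68 (SE 0.083), both called. Of 10 listed housekeeping genes 8 fell, 1 rose and 1 was not called in that comparison, with a median of -0.7.

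**Figure D4:**
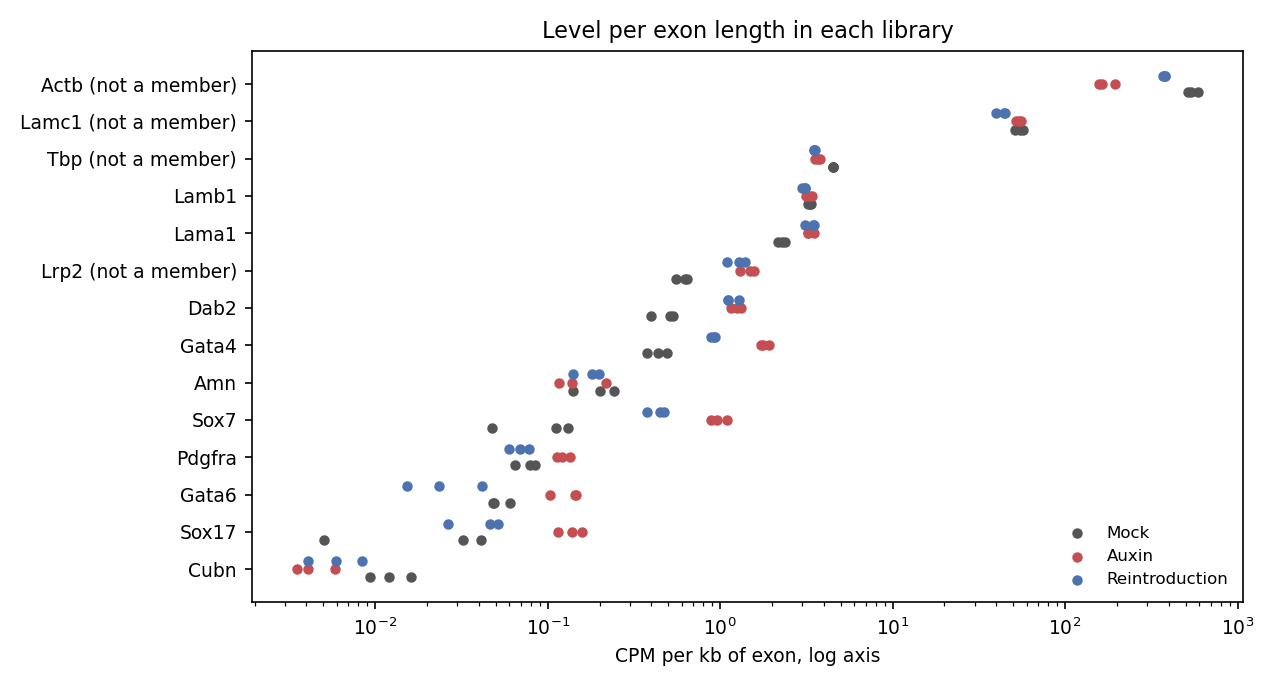
CPM per kb of exon (log axis) in each library for the 10 genes and for Lamc1, Lrp2, Tbp and Actb, which are no members; colours give the groups. Lamb1 and Lama1 lie near or below Tbp in all groups, while all libraries of Cubn, Sox17, Gata6 and Pdgfra lie below 0.2, with Cubn lowest in the mean of each group.

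Other genes of primitive and visceral endoderm did not move together. Of 25 listed genes 18 were tested, and in Auxin against Mock 8 rose, 5 fell and 5 were not called, with a median of 0.05. Over all genes 38.4% were called higher and 34.8% lower, so a split in both directions was not particular to this list. For this list and those below, the shares over all genes were 25.5% higher and 25.5% lower in Reintroduction against Auxin. In Reintroduction against Mock they were 34.7% and 33.4%. Foxa2, a forkhead factor of visceral and definitive endoderm, measured 0.311, 0.398 and 0.196 CPM in Mock, against 1.39, 1.35 and 1.31 in Auxin, and 0.414, 0.29 and 0.343 in Reintroduction. It rose by 2.14 log2 units (SE 0.235, adjusted p = 7.26e-06) and fell by 1.92 in Reintroduction against Auxin (SE 0.238, adjusted p = 5.31e-05), to a level that overlapped Mock. Cited1, a transcriptional co-regulator of yolk sac and placenta, fell by 3.46 in Auxin against Mock (SE 0.149, adjusted p = 4.24e-09) and rose by 2.05 in Reintroduction against Auxin. The mature markers Ttr and Apoa4 and the anterior marker Cer1 had 0 counts in all 9 libraries. In Reintroduction against Auxin 3 of the 18 rose and 6 fell, and in Reintroduction against Mock 5 were higher and 7 lower.

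Genes of parietal endoderm and basement membrane moved in both directions. Of 21 tested, 11 rose, 5 fell and 5 were not called in Auxin against Mock, with a median of 0.43. The 3 with the smallest p were Serpinh1, a collagen chaperone (2.59, SE 0.07), Plat, tissue plasminogen activator (3.48, SE 0.149), and Nid1, which links laminin to collagen IV (1.29, SE 0.06). Nid1 went from 147, 159 and 159 CPM in Mock to 399, 374 and 364 in Auxin and 293, 317 and 320 in Reintroduction. Sparc, an abundant parietal endoderm glycoprotein, fell by 1.23 in Auxin against Mock (SE 0.059) and rose by 0.74 in Reintroduction against Auxin (SE 0.059, adjusted p = 1.8e-06). In Reintroduction against Auxin 8 rose and 8 fell, and in Reintroduction against Mock 11 were higher and 6 lower.

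The FGF and ERK signal that acts upstream of primitive endoderm was listed with 24 genes. In Auxin against Mock 4 rose, 13 fell and 7 were not called, with a median of -0.16, and the ligand Fgf4 was among those not called (-0.12, adjusted p = 0.0999). This split depended on the scaling, since with total counts 8 rose and 8 fell. Etv4, a transcriptional target of ERK, fell by 1.85 (SE 0.078, adjusted p = 3.67e-09), and Spry4, a feedback inhibitor, fell by 0.95 (SE 0.071, adjusted p = 2.91e-07). Dusp4, a phosphatase of ERK, rose by 3.27 (SE 0.09, adjusted p = 2.36e-10). In Reintroduction against Auxin, Dusp4 fell by 1.41 and Etv4 and Dusp6 rose by 0.97 and 0.76, and over the list 6 rose and 4 fell. Without Auxin replicate 2 those counts were 12 and 4. In Reintroduction against Mock 7 were higher and 11 lower, or 8 and 4 with total counts.

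Epiblast genes, the alternative fate of the inner cell mass, mostly rose in Auxin as well. Of 14 genes 10 rose, 2 fell and 2 were not called in Auxin against Mock (median 0.54), and in Reintroduction against Auxin 1 rose and 11 fell (median -0.47). The examples with the smallest p were Klf5 (1.61, SE 0.061), Prdm14 (1.68, SE 0.067) and Sox2 (1.00, SE 0.047). The 2 that fell in Auxin against Mock were Pou5f1 (-0.53, SE 0.074) and Dppa3 (-1.08, SE 0.266). Reintroduction against Auxin gave -0.01 for Pou5f1, not called, and 1.03 for Dppa3 (SE 0.273). In Reintroduction against Mock 5 were higher and 4 lower, with a median of -0.03. Gata4 and Sox7 of one lineage and Klf5 and Sox2 of the other thus rose in Auxin and fell in Reintroduction against Auxin within the same libraries.

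Several members also mark other cells, and the markers of those cells were measured beside them. Summed over 9 endothelial genes, levels were 73.3 to 75.4 CPM in Mock, 180 to 193 in Auxin and 79.4 to 84.9 in Reintroduction. Most of that sum was Pecam1, which stem cells also express (1.36 log2 units in Auxin against Mock, SE 0.053), while Emcn had 0 counts in all libraries. Of the 5 tested, 3 rose and 0 fell in Auxin against Mock, with Kdr at 1.25 (SE 0.235) and Tek at 0.81 (SE 0.072). In Reintroduction against Mock, Cdh5, Kdr and Tek were called higher, while Pecam1 gave 0.01 and was not called. Over 10 fibroblast genes the sums were 22.7 to 25.6, 46.3 to 55.9 and 41.8 to 42.9 CPM, with Twist2 and Fap at 0 throughout. Most of that sum was Thy1, at 17.9 ± 1.2, 41.2 ± 4.0 and 37.5 ± 0.77 CPM in the same order (mean ± SD, n = 3), while Col1a1 fell by 1.47 log2 units in Auxin against Mock (SE 0.28). Of the 5 fibroblast genes tested, 3 rose (Thy1, Twist1 and Pdgfrb) and 1 fell in that comparison. Over 11 cardiac mesoderm genes the sums were 5.21 to 6.67, 5.80 to 6.43 and 5.30 to 5.99 CPM. Single genes of that list moved in opposite directions under these sums, with 3 higher and 1 lower in Auxin against Mock. Isl1 rose by 2.39 log2 units (SE 0.241), Tbx5 by 6.22 (SE 0.384, from 5 raw counts over all Mock libraries to 358 over all Auxin libraries) and Hand1 by 2.24 (SE 0.478), and Myl7 fell by 1.94 (SE 0.14). Over 11 markers of definitive endoderm and mesendoderm, a list that holds Sox17 itself, they were 50.1 to 51.2, 31.5 to 34.0 and 70.8 to 73.5 CPM. Most of that sum was Eomes, at 35.4 ± 0.78, 25.6 ± 1.1 and 66.9 ± 1.6 CPM (mean ± SD, n = 3). In Auxin against Mock 4 of the 8 tested rose (Sox17, Foxa2, Foxa1 and Cxcr4) and 3 fell. Over 11 trophoblast genes they were 111 to 113, 213 to 233 and 211 to 225 CPM. Most of that sum was Tead4 and Tfap2c, with Mock levels of 63.9 ± 2.2 and 27.2 ± 0.65 CPM (mean ± SD, n = 3). Of the 10 tested, 7 rose and 3 fell in Auxin against Mock. Those that fell were Cdx2 (-4.32 log2 units, SE 0.542), Esx1 (-1.41, SE 0.196) and Ascl2 (-0.98, SE 0.184). The part of such cells in the members' values was not tested.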

How the data were processed

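The authors deposited unnormalized counts of reads for each gene. Per the file headers, featureCounts 2.0.6 counted reads over exons by gene (mm10) in paired mode, with no strand setting and each mate counted, so independent fragments are fewer than counts. The submitters' processing notes also name Trim Galore 0.6.10, FastQC 0.12.1, Bowtie2 2.5.3 and SAMtools 1.20, whose roles are not given in the sources used here. Symbols matched 48058 of 48440 genes.

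The 9 libraries entered 1 edgeR 4.0.16 quasi-likelihood fit (R 4.3.3, limma 3.58.1) after filterByExpr, with TMM factors from 0.905 to 1.079, group as the only term, and two-sided tests. The common biological coefficient of variation was 9.15%. P-values measure only the spread between these libraries. In simulated counts for all 20838 genes with 200 changed 2-fold, recovery in Auxin against Mock was 99.3% at 1 CPM or more and 25.9% below it, and false calls made up 7.1% of calls. In Reintroduction against Auxin recovery was 98.6% and 22%, and in Reintroduction against Mock 100% and 28.8%. These simulated counts held no difference in length trend between groups and few changed genes. In the data 73.2% of genes were called in Auxin against Mock, so the shares need not hold there.

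The members and the other gene lists were chosen with earlier results of these data known. Named were the 10 members, Lamc1, Lrp2, Tbp and Actb for levels, and from each other list up to 3 called genes per comparison with the smallest p and no overlap between groups, printed here for the endoderm, basement membrane, FGF and epiblast lists and for Foxa2 and Pecam1. Other cell markers named beside their sums were chosen after their values were seen. One gene that this rule names is not reported here. Pou5f1 and Suz12 are given as checks, Fgf4 as the ligand, and genes at 0 counts were named after their values were seen. Pou5f1 and Dppa3 are also given as the epiblast genes that fell in Auxin against Mock. Alternatives were DESeq2 1.42.0 size factors, total counts, no filter, at least 1 CPM in 3 libraries, the DESeq2 Wald test, fits restricted to a pair of groups, a replicate block, removal of each library's length and GC trends (GC known for 99.2% of genes), halved counts, thinning to the smallest library, a 2-fold requirement, and leaving out each library.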

Additional observations from a re-analysis of the deposited data

How the results depend on the processing

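Depth limits Gata6, Sox17, Cubn and Amn, below 1 CPM in all libraries, and Sox7 and Pdgfra, below it in part of them. With at least 1 CPM required in 3 libraries, fewer genes were tested and 5 members were called in Auxin against Mock. With a 2-fold change required, 6625, 2289 and 4664 genes were called in Auxin against Mock, Reintroduction against Auxin and Reintroduction against Mock, and 3 members in Reintroduction against Auxin. With total counts the median of all genes was 0.26, -0.08 and 0.16 in the 3 comparisons, and 4279 genes rose and 6393 fell in Reintroduction against Auxin. Leaving out 1 library gave 14248 to 16045, 9142 to 11585 and 13008 to 15138 genes, and 8, 5 and 4 to 5 members.

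Among the members, signs turned only for Lamb1, Amn and Lama1, at values that were not called unless stated. In Auxin against Mock, Lamb1 was 0.20 (total counts, called), 0.06 (1 CPM filter) and 0.02 (only 2 groups), and between -0.04 and 0.01 leaving out 1 library. Amn was 0.11 with the trends removed and 0.10 with the block as well. In Reintroduction against Auxin, Lama1 was -0.07 (total counts), -0.04 (1 CPM filter) and -0.02 (only 2 groups), and between -0.02 and 0.07 leaving out 1 library. Lamb1 was 0.01 with the trends removed, with or without the block, and Amn was -0.07 thinned and -0.03 to 0.43 leaving out 1 library. In Reintroduction against Mock, Lamb1 was 0.02 (total counts) and Amn 0.13 with the trends removed and 0.11 with the block as well. The cause was not tested.

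No pairing by replicate number was seen in whole-library deviations, a check that cannot exclude a weaker pairing. Deviations from group means correlated between -0.67 and 0.49 for same-numbered libraries and between -0.63 and 0.72 for others, and 0 of 9 libraries correlated best with its own number in both other groups. With the replicate number as a block, 14808, 9829 and 13639 genes and 8, 5 and 4 members were called.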
